A study of Mus musculus with 10 samples.

Results

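Passage of primitive neural stem cell spheres into medium with FGF and heparin was examined on 4 of the 10 arrays of the series, 2 cultures per group, chosen by their labels. The group pNSC_L was the primary pass. Its cells came from R1, a mouse embryonic stem (ES) cell line of the 129/Sv strain, dissociated, plated at 20 cells per µl in uncoated dishes and grown into spheres in serum-free DMEM/F-12 with N2 supplement and 1000 U/ml Lif. The group pNSC_LF was the secondary pass, in which primary spheres of 5 to 7 days were dissociated with Accutase and plated again in 1000 U/ml Lif, 10 ng/ml FGF and 2 µg/ml heparin. Pass number, FGF and heparin thus changed together, and their parts in any difference cannot be told apart. All 4 cultures descend from 1 ES cell line, so the replicates, which the series' design calls biological, sample no other genotype. The other groups, of 2 arrays each, were ESC (the R1 line on inactivated fibroblast feeders, in 15% serum and 1000 U/ml Lif), dNSC (definitive neural stem cells passaged from primitive ones in N2, B27, 20 ng/ml FGF, 20 ng/ml EGF and 2 µg/ml heparin, with no Lif listed) and CNS_NSC (neural stem cells from the frontal lobes of E11.5 ICR embryos, in N2, 20 ng/ml EGF, 20 ng/ml FGF and 2 µg/ml heparin). Each of 19938 genes had 1 log2 intensity per array, and a difference is pNSC_LF minus pNSC_L on the log2 scale, ± limma's SE (n = 2 per group). That SE draws on a gene's spread within all 5 groups, so it can differ from what the 4 arrays alone show. The verbs rose and fell are used of genes with a limma adjusted p below 0.05. With so few arrays every value has limited precision.

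FGF binds its receptors together with heparan sulphate, for which added heparin can stand in, and signals largely through the ERK kinases. Targets of that pathway include its own inhibitors of the Sprouty, Spred and Dusp families and the Etv transcription factors. Lif acts through its receptor and Stat3 and keeps mouse ES cells undifferentiated. Primitive neural stem cells are sphere-forming cells that arise from ES cells in Lif without serum and are described as a stage before the definitive neural stem cells, which depend on FGF or EGF.

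The label of primitive neural stem cell was set against marker genes. Pou5f1, the central pluripotency factor, stood at 13.04 and 12.97 on the pNSC_L arrays and at 12.96 and 12.90 on the pNSC_LF arrays. On the ESC arrays it read 12.86 and 12.66. All 6 ES cell markers, which include Nanog, Zfp42 and Esrrb, were higher on all 4 arrays than on both dNSC arrays, and 0 of the 6 were called between pNSC_LF and pNSC_L. Of 8 neural stem cell markers, 7 were lower on all 4 arrays than on both dNSC arrays. Nes, an intermediate filament of neural stem cells, read 7.26 and 6.94 in pNSC_L and 7.17 and 7.38 in pNSC_LF, against 10.04 and 9.84 in dNSC. Pax6, a neural transcription factor, stood at 6.94 and 6.80 in pNSC_L and at 7.12 and 6.79 in pNSC_LF, below both ESC arrays at 8.32 and 8.22. The ES cell markers thus stood near their ESC level, and no definitive neural stem cell marker but Sox2, which ES cells share (12.94 to 13.22 on the 4 arrays), reached the dNSC level. Markers of other early lineages were not all at the ESC level. Eomes, a primitive streak factor, read 9.57 to 9.94 on the 4 arrays against 8.15 and 8.19 in ESC. Mixl1, another streak marker, read 7.27 and 7.12 in pNSC_L and 7.12 and 7.16 in pNSC_LF, below both ESC arrays at 7.67 and 7.45. The streak marker Gsc read 7.77 and 7.96 and then 8.002 and 7.98, against 7.788 and 7.785 in ESC. On the 4 arrays 7 primitive endoderm markers summed to 3272 to 3849 in linear intensity, against 2146 and 2322 in ESC. The largest part of that excess came from the laminin Lama1, at 10.53 to 11.09 against 10.00 and 10.09 in ESC. Gata4, Gata6, Sox17, Sox7 and Dab2 also stood above both ESC arrays, Gata6 by little in pNSC_LF (8.42 and 8.48 against 8.16 and 8.41). Afp, at 6.50 to 6.70, did not clear both ESC arrays (6.21 and 6.62) throughout. Arrays of whole cultures cannot tell fewer cells of a type from less RNA per cell.

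Between the passes 355 of 19938 genes were called, 1.78% of those tested. Of these, 220 rose (1.10%) and 135 fell (0.677%), and 73 and 27 of them differed by at least 2-fold. The median difference over all genes was 0.01 and the median absolute difference was 0.115. The difference was negative at 9434 of the 19938 genes, which is the reference for counts of signs below. The gene lists below were chosen with earlier results of these data known, so their counts are descriptions. The arrays of both groups did not overlap at any of the 355 called genes, nor at 39.7% of all genes, so separation of 2 against 2 arrays is common here. The largest changes were rises of the choline and methionine enzymes Dmgdh and Bhmt2 and falls of the matrix protease Mmp3 and the matrix proteoglycans Dcn and Bgn.

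The replicates of the primary pass varied more than those of the secondary pass. The pNSC_L arrays correlated at r = 0.9887 across genes, which are not independent replicates, and the SD of their difference was 0.312. For pNSC_LF the values were r = 0.9962 and 0.173. The pNSC_L replicates stood at least 2-fold apart at 167 genes, 53 higher in replicate 1 and 114 in replicate 2, against 23 genes in pNSC_LF, all higher in replicate 1. Fos, an immediate early transcription factor, was at 9.29 and 7.39 in pNSC_L and at 8.91 and 9.12 in pNSC_LF, so that the secondary-pass arrays lay between the primary-pass ones. Bcap29, a protein of the endoplasmic reticulum, was at 7.41 and 9.34 in pNSC_L, and both pNSC_LF arrays, at 9.67 and 9.90, exceeded the higher of these. The vault RNA gene Vaultrc5 read 9.40 and 5.75 in pNSC_L and 7.55 and 6.10 in pNSC_LF. Small nucleolar RNA genes differed between replicates in 1 direction: 46 of 54 were higher in replicate 1 of pNSC_L (median difference 0.538), and 48 of 54 in replicate 1 of pNSC_LF (median 0.662). Replicate 1 was also the higher at 47 in ESC and 44 in CNS_NSC, and at 10 in dNSC; 1 of the 54 was called between the passes.

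Set against pNSC_L replicate 1 alone, the pNSC_LF mean was at least 2-fold higher at 155 genes and lower at 53. Against replicate 2 alone the counts were 81 and 59, and against both arrays 47 and 14. Refitting without 1 array moved the number of calls from 355 to 48 without pNSC_LF replicate 1, 70 without pNSC_LF replicate 2 and 826 without pNSC_L replicate 2. Without pNSC_L replicate 1 the number was 398, of which 49.5% were rises, against 62.0% with all arrays. A core of 42 genes, 35 that rose and 7 that fell, was called in each of these 4 fits, and a call is described below as held where it was among them. With 1 array left in a group, that array was assumed to vary like the other groups.

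**Figure D1:**
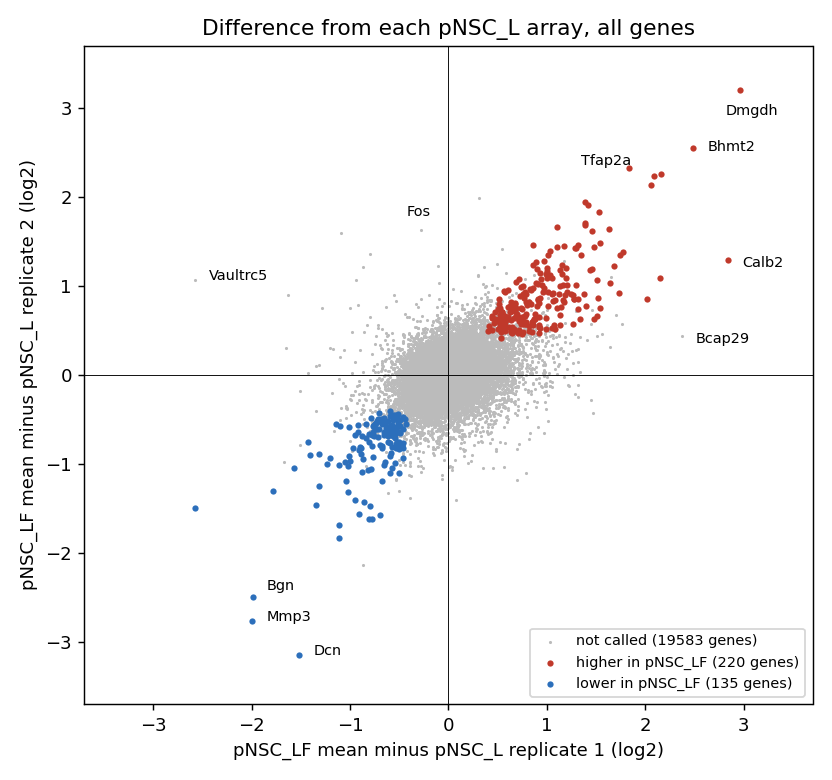
Difference of the pNSC_LF mean from pNSC_L replicate 1 (horizontal) and from replicate 2 (vertical), log2, 1 point per gene for 19938 genes; red and blue mark the 220 genes that rose and the 135 that fell. Dmgdh, Bhmt2 and Tfap2a lie far from both arrays, while Vaultrc5, Fos and Bcap29 differ mainly from 1 of them.

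The most changed genes belonged to choline and methionine metabolism. Bhmt transfers a methyl group from betaine, the oxidation product of choline, to homocysteine, which yields methionine and dimethylglycine; Bhmt2 makes methionine from homocysteine with another methyl donor; and Dmgdh oxidises dimethylglycine in mitochondria. The 3 genes follow each other on chromosome 13, and Bhmt2 and Dmgdh are transcribed away from each other from starts 134 bases apart. The stretch is shown because both genes rose. It is the Dmgdh promoter window of RefSeq (GRCm38.p6, chr13:93674186-93674485, plus strand, from 250 bases before the gene's first base to 50 bases from it on), and capitals mark the 133 bases between the first bases of Bhmt2 and Dmgdh.
Dmgdh: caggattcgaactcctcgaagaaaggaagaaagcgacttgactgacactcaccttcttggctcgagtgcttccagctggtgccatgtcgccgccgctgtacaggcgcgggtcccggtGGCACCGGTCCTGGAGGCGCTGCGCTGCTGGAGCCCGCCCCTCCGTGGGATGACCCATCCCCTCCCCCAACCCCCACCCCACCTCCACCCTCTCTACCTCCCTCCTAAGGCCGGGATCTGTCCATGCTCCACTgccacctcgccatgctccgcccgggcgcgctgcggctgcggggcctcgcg
The window of Bhmt2 (chr13:93674253-93674552, minus strand) shares 233 bases with it. G and C made up 68.0% of the Dmgdh window, against a median of 52.7% over all promoter windows, and 69.9% of the bases between the starts.

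Dmgdh read 7.40 and 7.16 on the pNSC_L arrays and 10.36 and 10.37 on the pNSC_LF arrays, a rise of 3.09 ± 0.14 or 8.50-fold (limma adjusted p = 8.2e-06). Bhmt2 went from 7.52 and 7.44 to 10.03 and 9.96, a rise of 2.52 ± 0.12 (adjusted p = 8.2e-06). The secondary-pass arrays of both genes agreed within 0.07 and stood above all other 8 arrays, whose highest values were 7.40 for Dmgdh and 7.54 for Bhmt2. Bhmt rose from 7.44 and 7.29 to 8.73 and 8.70, by 1.35 ± 0.13 (adjusted p = 0.0012), and its 2 other probe sets differed by 0.45 and 1.42. These 3 calls held.

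Of 29 measured genes of choline, methionine and one-carbon metabolism, 5 rose and 1 fell, against 1.10% and 0.677% of all genes. The list's median difference was 0.10. Cbs, which commits homocysteine to cysteine synthesis, rose by 0.70 ± 0.13 (adjusted p = 0.024) and the mitochondrial folate enzyme Mthfd2l by 0.58 ± 0.10 (adjusted p = 0.020). Chka, the kinase that starts phosphatidylcholine synthesis from choline, fell by 0.57 ± 0.12 (adjusted p = 0.043). These smaller calls were lost without pNSC_LF replicate 1, with adjusted p = 0.21 for Cbs, 0.24 for Mthfd2l and 0.36 for Chka, and without pNSC_LF replicate 2, with 0.17, 0.11 and 0.16. Cbs was also lost without pNSC_L replicate 2 (adjusted p = 0.052) and Chka without pNSC_L replicate 1 (adjusted p = 0.11). Other enzymes of the same pathway were not called: Chdh, which oxidises choline, differed by -0.10, Sardh, which follows Dmgdh, by -0.11 and the folate-dependent methionine synthase Mtr by -0.04.

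A second run of neighbours on chromosome 13 also rose: Serpinb6b, Serpinb9 and Serpinb9b, inhibitors of proteases inside cells, whose sequences are related. Serpinb6b was at 6.42 and 6.31 in pNSC_L and 8.61 and 8.54 in pNSC_LF, a rise of 2.21 ± 0.10 (adjusted p = 8.2e-06). Serpinb9b rose by 1.14 ± 0.11 (adjusted p = 0.0016) from 8.29 and 8.39 to 9.56 and 9.40. Serpinb9, at 5.20 and 5.09 and then 6.19 and 5.88, is dim, below the lower quartile of probe sets (6.39 to 6.49 on the 10 arrays), where sizes are uncertain; it rose by 0.89 ± 0.13 (adjusted p = 0.0090). Leaving out pNSC_LF replicate 1 ended its call (adjusted p = 0.12), while the other 2 held.

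Among the 15 largest rises by the naming rule were also genes of cell communication and of transcription. Tfap2a, a transcription factor of surface ectoderm and neural crest, rose from 7.79 and 7.63 to 10.02 and 9.73, by 2.16 ± 0.14 (adjusted p = 0.00013). S1pr1, a receptor for the lipid sphingosine-1-phosphate, rose from 7.02 and 6.52 to 8.95 and 8.76, by 2.08 ± 0.19 (adjusted p = 0.00086). Ntn1, the secreted guidance protein netrin-1, was at 8.49 and 8.48 and then 10.13 and 10.12, a rise of 1.64 ± 0.16 (adjusted p = 0.0015). For these 3 genes the spread within each pass was smaller than the distance between passes. Separated arrays were a condition of the naming rule, so this adds no support. The rises of Pdzrn4 (2.09 ± 0.17), Pglyrp1 (1.68 ± 0.13), which encodes a protein that recognises bacterial cell walls, and Calr4 (1.58 ± 0.15), a relative of the chaperone calreticulin, also held.

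Among the other large rises, Calb2 and Ly96 had primary-pass replicates far apart. Plagl1, Nqo1, Axin2 and Id3, also among the 15, are given with their lists below. Calb2, the calcium-binding protein calretinin, read 7.25 and 8.79 in pNSC_L and 10.09 and 10.09 in pNSC_LF, a rise of 2.07 ± 0.38 (adjusted p = 0.028). Ly96, a co-receptor for bacterial lipopolysaccharide, read 6.25 and 7.30 and then 8.30 and 8.49, a rise of 1.62 ± 0.29 (adjusted p = 0.023). Neither gene's groups overlapped, as the naming rule required, but the primary-pass replicates lay over 1 log2 unit apart. The call of Calb2 was lost without pNSC_LF replicate 1 or replicate 2 (adjusted p = 0.20 and 0.17), as was that of Ly96 (0.15 and 0.18).

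**Figure D2:**
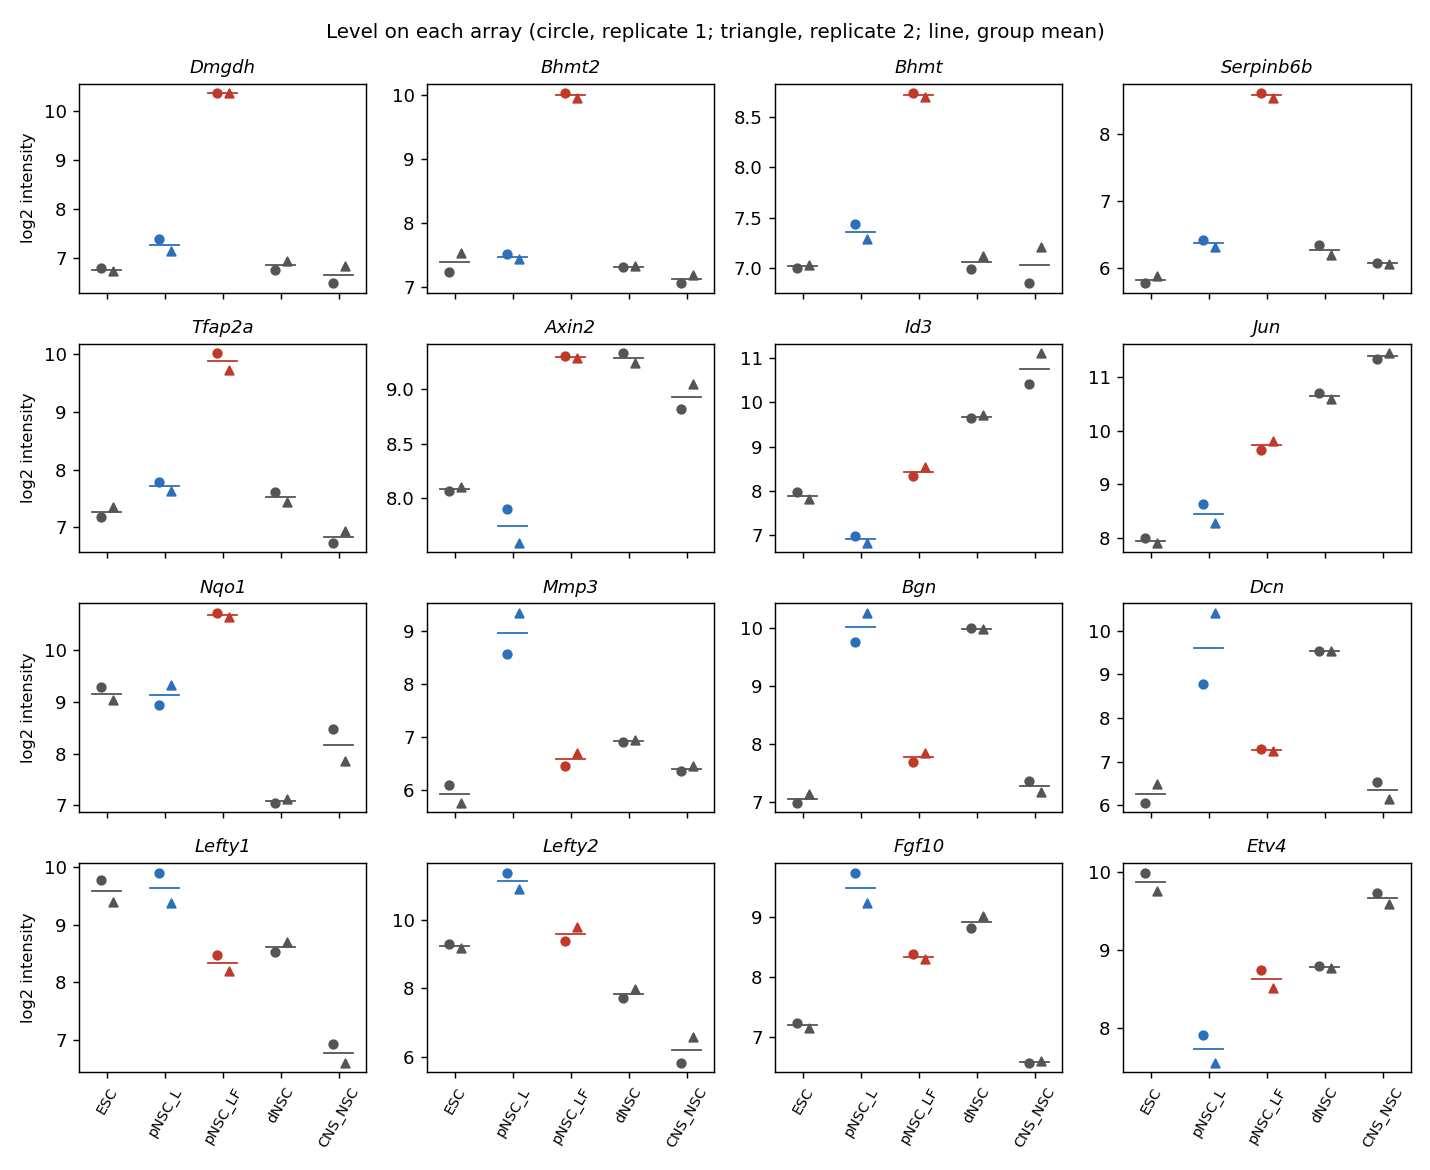
Log2 intensity of 16 genes on each of the 10 arrays, by group; circles are replicate 1, triangles replicate 2 and lines the mean of 2 arrays. Dmgdh, Bhmt2, Bhmt, Serpinb6b and Tfap2a were highest in pNSC_LF, while Mmp3, Lefty2 and Fgf10 were highest in pNSC_L.

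Genes of the FGF pathway itself were taken by role, beside the 1.78% called over all genes. Of 11 measured FGF ligands 1 fell, and of 8 receptors, klothos and adaptors none was called. Fgf10, a ligand of mesenchyme to epithelium signalling, was at 9.75 and 9.24 in pNSC_L and 8.38 and 8.30 in pNSC_LF, and fell by 1.15 ± 0.16 (adjusted p = 0.0061); leaving out pNSC_LF replicate 1 or 2 ended the call (adjusted p = 0.065 and 0.075). Fgf4, the ligand that ES cells make themselves, differed by 0.04. The receptor Fgfr1 stood at 10.57 and 10.21 and then 10.53 and 10.43, with overlapping arrays and a difference of 0.09 ± 0.13.

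Of 20 measured feedback inhibitors and targets of FGF and ERK signalling, 1 rose, 15 differed upward in value and the median was 0.16. Etv4, an ETS transcription factor, read 7.91 and 7.55 in pNSC_L and 8.74 and 8.52 in pNSC_LF, and rose by 0.90 ± 0.14 (adjusted p = 0.016). Both secondary-pass arrays remained below the ESC mean of 9.88, and the rise was lost without pNSC_LF replicate 1 or 2 (adjusted p = 0.18 and 0.068). The direct feedback inhibitors were not called: Spry2 differed by 0.06 ± 0.22, Spry4 by 0.45 ± 0.14, Dusp6 by 0.10 ± 0.15 and Spred1 by 0.56 ± 0.13 (adjusted p = 0.96, 0.17, 0.87 and 0.063). Etv5 stood at 11.61 and 11.68 and then 11.78 and 11.80. Of 21 heparan sulphate proteoglycans and their enzymes, 1 rose and 1 fell: the glypican Gpc4 by 0.51 ± 0.10 (adjusted p = 0.032) and the glypican Gpc3, which fell by 0.96 ± 0.16 (adjusted p = 0.017). Both were lost without pNSC_LF replicate 1, 2 or pNSC_L replicate 1, with adjusted p = 0.31, 0.17 and 0.058 for Gpc4 and 0.16, 0.12 and 0.058 for Gpc3.

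Lif was present in both passes. Of 18 genes of the Lif receptor and Stat3 pathway 1 rose and 1 fell. Klf4, a Stat3 target and pluripotency factor, read 10.83 and 10.77 and then 11.58 and 11.45, a rise of 0.72 ± 0.10 (adjusted p = 0.0084). Lifr, a subunit of the receptor, fell by 0.53 ± 0.11 (adjusted p = 0.050), a call lost in each of the 4 fits without 1 array (adjusted p between 0.071 and 0.39), and that of Klf4 was lost without pNSC_LF replicate 1 or 2 (adjusted p = 0.13 and 0.057). Socs3, the feedback inhibitor of Stat3, was at 10.38 and 10.27 in pNSC_L and 10.36 and 10.33 in pNSC_LF, with overlapping arrays. Of 21 naive pluripotency genes Klf4 alone was called, and of 9 core pluripotency genes none was, with a median of -0.14.

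Targets and inhibitors of Wnt signalling shifted upward in value. Of 19 measured, 2 rose (1.10% of all genes did) and 18 had a positive difference. The median was 0.28, or 0.19 against pNSC_L replicate 1 and 0.34 against replicate 2. Axin2, a direct target that limits the pathway, read 7.90 and 7.59 in pNSC_L and 9.30 and 9.28 in pNSC_LF, a held rise of 1.55 ± 0.13 (adjusted p = 0.00061). The secondary-pass level was close to that of dNSC, 9.33 and 9.24. Rnf43, which removes Wnt receptors from the membrane, rose by 0.66 ± 0.14 (adjusted p = 0.043), a call lost without pNSC_LF replicate 1, 2 or pNSC_L replicate 2 (adjusted p = 0.30, 0.24 and 0.089). The targets Sp5 and Ccnd1 differed by 0.64 ± 0.14 and 0.66 ± 0.14 without passing the test (adjusted p = 0.056 and 0.055). Of 23 ligands and receptors the receptor Fzd6 rose, by 0.69 ± 0.11 (adjusted p = 0.012; 0.12 without pNSC_LF replicate 1 and 0.12 without replicate 2).

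Of 24 genes of BMP signalling 2 rose (1.10% of all genes did). Id3, a BMP target that blocks differentiation factors, read 6.98 and 6.82 and then 8.33 and 8.54, a rise of 1.54 ± 0.20 (adjusted p = 0.0048; 0.062 without pNSC_LF replicate 2). Its relatives Id1, Id2 and Id4 differed by 0.18, -0.18 and 0.11 and were not called. Fst, the secreted activin and BMP binder follistatin, rose from 8.57 and 8.84 to 9.93 and 10.13, by 1.33 ± 0.14 (adjusted p = 0.0021), and held. Bmp4 itself read 11.24 and 11.10 and then 11.82 and 11.97, and its difference of 0.73 ± 0.40 did not pass the test. Its replicates lay close within each pass, and the SE also takes in its spread within the other groups.

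Nodal signalling showed the opposite sign: of 15 measured genes 2 fell (0.677% of all genes did), 13 had a negative difference and the median was -0.21. Both called genes are Lefty genes, neighbours on chromosome 1 that encode secreted inhibitors of Nodal and are targets of it. Lefty2 read 11.36 and 10.88 in pNSC_L and 9.36 and 9.79 in pNSC_LF, and fell by 1.54 ± 0.25 (adjusted p = 0.016). Lefty1 read 9.90 and 9.38 and then 8.48 and 8.19, and fell by 1.31 ± 0.20 (adjusted p = 0.012). Their sequences are much alike, so the probe sets may share signal. Nodal, at 10.41 and 10.23 and then 10.48 and 10.31, had overlapping arrays. The call of Lefty2 was lost without pNSC_LF replicate 1, 2 or pNSC_L replicate 1 (adjusted p = 0.17, 0.055 and 0.063) and that of Lefty1 without pNSC_LF replicate 1 or 2 (adjusted p = 0.065 and 0.12). The next gene on the chromosome, Tmem63a, fell by 0.63 ± 0.10 (adjusted p = 0.018; 0.13 without pNSC_LF replicate 1 and 0.17 without replicate 2).

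Lineage genes changed one by one. Among 28 genes of neural stem cells and progenitors, 1 rose, 1 fell and the median was 0.00. Ptprz1, a receptor phosphatase of neural progenitors, went from 6.60 and 6.11 to 8.05 and 7.99, and held. Slc1a3, the glutamate transporter of radial glia, fell by 0.61 ± 0.10 (adjusted p = 0.016; 0.19 without pNSC_LF replicate 1 and 0.10 without replicate 2). Ncam1, an adhesion protein of neurons, fell by 0.87 ± 0.13 (adjusted p = 0.0094; 0.12 and 0.075), the only one of 26 neuronal genes called. Of 16 retinoid genes the binding proteins Crabp1 and Crabp2 fell, by 0.61 ± 0.12 and 0.85 ± 0.18 (adjusted p = 0.036 and 0.047). Without pNSC_LF replicate 1, 2 or pNSC_L replicate 1 their adjusted p was 0.19, 0.28 and 0.099 for Crabp1 and 0.31, 0.23 and 0.094 for Crabp2.

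Of 22 genes of neural crest and surface ectoderm Tfap2a alone was called, with Krt8, a keratin of simple epithelia, at 0.68 (adjusted p = 0.069). Over 5 markers of surface ectoderm and crest the summed linear intensity was 2165 and 2864 in pNSC_L and 4153 and 4019 in pNSC_LF. Most of that difference came from Tfap2a, already named among the largest rises, and from Krt8. Krt18 differed by 0.35 (limma adjusted p = 0.65), and Sox10 and Dlx3 were at the ESC level. Hesx1, a repressor active in the early forebrain, was at 8.91 and 9.75 and then 7.98 and 8.28, and fell by 1.20 ± 0.23 (adjusted p = 0.032; 0.29 without pNSC_LF replicate 1 and 0.12 without replicate 2). Of 22 genes of primitive and visceral endoderm the endocytic receptor Cubn fell by 1.40 ± 0.18 (adjusted p = 0.0047; 0.067 without pNSC_LF replicate 1). Of 17 mesoderm and primitive streak genes and 11 trophoblast genes none was called.

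**Figure D3:**
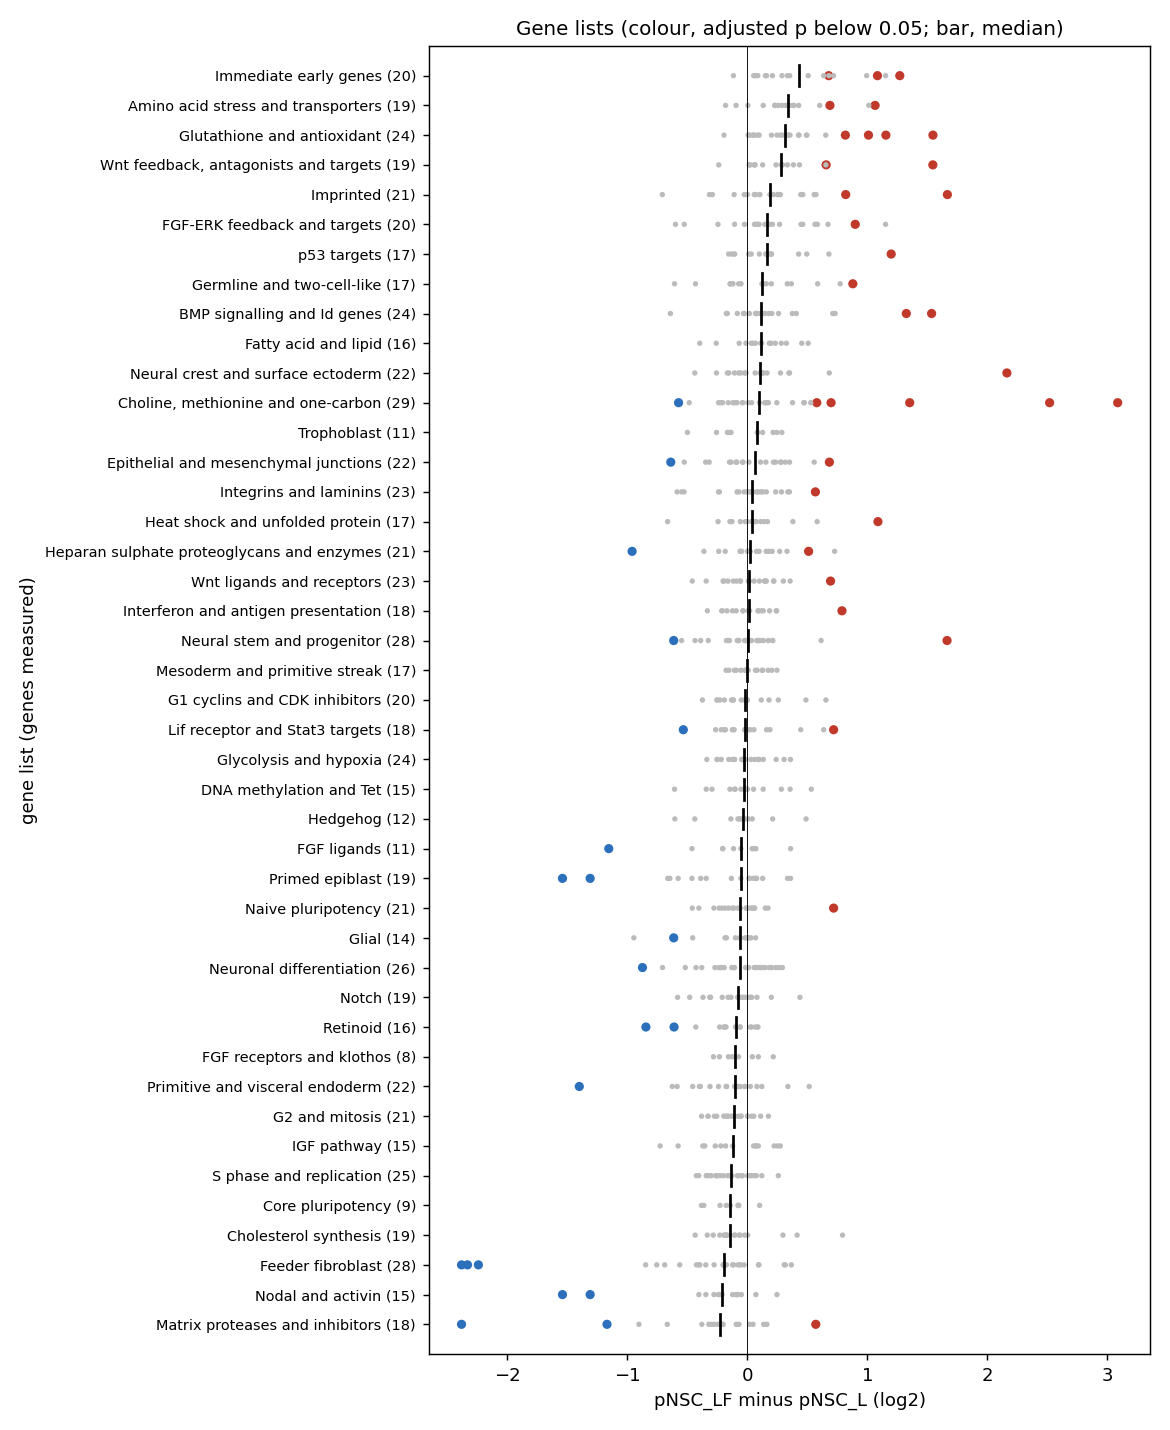
Difference between pNSC_LF and pNSC_L (log2, horizontal) of each measured gene of 43 lists (vertical; number of genes in brackets), ordered by median; black bars are medians and coloured points genes that rose (red) or fell (blue). Immediate early genes (median 0.43) stand at the top and matrix proteases and inhibitors (median -0.23) at the bottom, and 14 lists have no coloured point.

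Immediate early genes, which respond within minutes to growth factors or to stress, had the highest median of the 43 lists, 0.43 over 20 genes. Of these, 3 rose (1.10% of all genes did) and 19 had a positive difference. Size and rank depended on the primary-pass replicate: the median was 0.66 against replicate 2 and 0.22 against replicate 1, where the glutathione and antioxidant list (0.47), the germline list (0.28) and the amino acid list (0.26) stood higher. Jun read 8.62 and 8.29 in pNSC_L and 9.64 and 9.81 in pNSC_LF, a held rise of 1.27 ± 0.13 (adjusted p = 0.0017). Atf3, a stress-induced transcription factor, read 8.27 and 8.10 and then 9.25 and 9.29, a held rise of 1.08 ± 0.12 (adjusted p = 0.0026). Neither gene's arrays overlapped between the passes, as at all 355 called genes. Jund rose by 0.68 ± 0.10 (adjusted p = 0.0095; 0.12 without pNSC_LF replicate 1 and 0.10 without replicate 2). Egr1, the classical ERK target, read 9.92 and 8.24 and then 10.28 and 10.18, and its difference of 1.15 ± 0.50 did not pass the test.

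Genes of the response to amino acid shortage, which is run by the transcription factor Atf4, and amino acid transporters had a median of 0.34 over 19 genes. Of these, 17 had a positive difference and 2 rose (1.10% of all genes did). Chac1, which degrades glutathione, read 8.88 and 9.31 and then 10.21 and 10.11, and rose by 1.06 ± 0.17 (adjusted p = 0.017). Trib3, a pseudokinase of the same response, rose by 0.69 ± 0.12 (adjusted p = 0.020). Chac1 was lost without pNSC_LF replicate 1, 2 or pNSC_L replicate 1 (adjusted p = 0.17, 0.11 and 0.057) and Trib3 without pNSC_LF replicate 1 or 2 (0.19 and 0.14). The cystine transporter Slc7a11 was at 6.41 and 7.51 and then 8.15 and 7.80, and its difference of 1.01 ± 0.28 did not pass (adjusted p = 0.12). Atf4 itself differed by 0.26.

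A form of the DNA element that Atf4 binds with C/EBP proteins, TGATGCAA, was searched on both strands of the RefSeq promoter windows (GRCm38.p6, 300 bases each), and the windows of Chac1 and Atf3 are shown because both genes rose and hold it. Capitals mark the match, which is on the opposite strand in both.
Chac1 (chr2:119350992-119351291, plus strand): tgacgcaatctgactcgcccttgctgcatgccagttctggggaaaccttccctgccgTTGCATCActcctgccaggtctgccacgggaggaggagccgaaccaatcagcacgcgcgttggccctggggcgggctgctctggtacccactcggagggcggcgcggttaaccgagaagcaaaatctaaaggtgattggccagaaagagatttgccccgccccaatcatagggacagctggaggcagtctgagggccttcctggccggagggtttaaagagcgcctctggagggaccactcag
Atf3 (chr1:191183284-191183583, minus strand): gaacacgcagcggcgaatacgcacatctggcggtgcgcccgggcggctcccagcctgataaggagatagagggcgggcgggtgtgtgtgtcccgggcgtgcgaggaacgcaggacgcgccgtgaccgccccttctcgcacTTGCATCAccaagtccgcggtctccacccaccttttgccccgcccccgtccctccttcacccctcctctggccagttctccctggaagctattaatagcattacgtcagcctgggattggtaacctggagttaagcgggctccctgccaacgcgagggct
The match starts 193 bases before the gene's first base in Chac1 and 110 bases before it in Atf3. The element was in 7 of 233 windows of genes that rose (3.0%), in 2 of 138 windows of genes that fell (1.45%) and in 0.895% of all 32851 windows; 181 of the 220 rising genes and 97 of the 135 falling ones had a window. The other 5 rising genes with it, picked here by the match, were Inhbe (0.79 ± 0.11), Nupr1 (0.75 ± 0.15), Ptgr1 (0.85 ± 0.14), Frmd4b (0.93 ± 0.18) and Sh3bgrl (1.33 ± 0.24). None of those 5 held: without pNSC_LF replicate 1 their adjusted p was 0.057, 0.30, 0.18, 0.26 and 0.11, and without replicate 2 it was 0.11, 0.20, 0.11, 0.17 and 0.20. A match is a description of these letters and was not tested as a binding site.

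Enzymes against oxidative damage were also among the rises: of 24 glutathione and antioxidant genes 4 rose and none fell, against 1.10% and 0.677% of all genes. In value 23 differed upward, and the median was 0.32. It was 0.47 against pNSC_L replicate 1 and 0.13 against replicate 2. Nqo1, a quinone reductase, read 8.93 and 9.33 in pNSC_L and 10.72 and 10.64 in pNSC_LF, a rise of 1.55 ± 0.20 (adjusted p = 0.0048; 0.065 without pNSC_LF replicate 1). The glutathione peroxidases Gpx2 and Gpx3 rose by 1.15 ± 0.13 and 1.01 ± 0.11 (adjusted p = 0.0027 and 0.0021), and both held. Gpx3 went from 8.32 and 8.18 to 9.32 and 9.19, near the ESC mean of 9.04. Hmox1, which degrades haem, was at 9.55 and 9.55 and then 10.39 and 10.35, and rose by 0.82 ± 0.10 (adjusted p = 0.0047; 0.075 without pNSC_LF replicate 1 and 0.053 without replicate 2). The glutathione synthesis subunit Gclm was not called (0.50 ± 0.19).

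Genes of the extracellular matrix showed the largest falls. Mmp3, the protease stromelysin-1, read 8.58 and 9.35 in pNSC_L and 6.46 and 6.71 in pNSC_LF, and fell by 2.38 ± 0.22 or 5.21-fold (adjusted p = 0.00099). Bgn, the small matrix proteoglycan biglycan, read 9.76 and 10.26 and then 7.69 and 7.85, and fell by 2.24 ± 0.16 (adjusted p = 0.00027). Both held, and the secondary-pass values lay nearer to the ESC means of 5.93 for Mmp3 and 7.05 for Bgn than to the primary pass. Its relative Dcn, decorin, read 8.79 and 10.41 and then 7.28 and 7.24, and fell by 2.33 ± 0.40 (adjusted p = 0.020) with widely separated primary-pass replicates. Timp2, an inhibitor of matrix proteases, read 8.95 and 9.25 and then 8.001 and 7.87; it fell by 1.17 ± 0.13 (adjusted p = 0.0024) and held. Srgn, the granule proteoglycan serglycin, fell by 1.47 ± 0.19 (adjusted p = 0.0050). The calls of Dcn and Srgn were lost without pNSC_LF replicate 1 (adjusted p = 0.16 and 0.065) or replicate 2 (0.14 and 0.052).

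Fibroblast feeders carried the ES cells from which the spheres were made, so fibroblast genes were counted as a list. Of 28 measured, Mmp3, Dcn and Bgn fell (0.677% of all genes did), 23 had a negative difference and the median was -0.20. Over 9 defining fibroblast markers, 1 of them called, the summed linear intensity was 2375 and 3232 in pNSC_L, 1970 and 2009 in pNSC_LF and 2190 and 2204 in ESC. Most of the difference came from Dcn. Col1a1, the main fibroblast collagen, read 8.58 and 8.28 in pNSC_L, 8.34 and 8.29 in pNSC_LF and 8.21 and 8.24 in ESC, and Thy1 read 8.73 and 8.71 and then 8.65 and 8.67, below both ESC arrays. The part of fibroblasts in the falls was not tested. Of 18 matrix proteases and inhibitors Mmp11 rose, by 0.57 ± 0.11 (adjusted p = 0.035; 0.088 without pNSC_L replicate 1, 0.24 and 0.25 without pNSC_LF replicate 1 and 2).

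Other genes of the 15 largest falls were of several kinds. Sgo2b, of the shugoshin family that protects centromere cohesion, read 8.17 and 8.11 and then 6.70 and 7.01; it fell by 1.28 ± 0.14 (adjusted p = 0.0021) and held. Nlrp4a, of a family with members active in oocytes and embryos, fell by 1.40 ± 0.21 (adjusted p = 0.011). Mitf, the transcription factor of melanocytes and retinal pigment cells, read 10.80 and 10.81 and then 9.77 and 9.80, and fell by 1.02 ± 0.12 (adjusted p = 0.0032). Mitf was lost without pNSC_LF replicate 1 (adjusted p = 0.054) and when all its probe sets were averaged (adjusted p = 0.27), and Nlrp4a without pNSC_LF replicate 1 or 2 (0.13 and 0.064). A2m, Copz2 and Slc5a11, of protease inhibition, vesicle transport and inositol uptake, fell by 1.12 ± 0.15, 1.10 ± 0.14 and 1.09 ± 0.18. Without pNSC_LF replicate 1 their adjusted p was 0.10, 0.054 and 0.15, and without replicate 2 that of Copz2 was 0.064 and that of Slc5a11 0.14.

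Imprinted genes, which are expressed from 1 parental copy, included 2 rises among 21 measured (1.10% of all genes rose). Plagl1, an imprinted zinc finger factor, read 8.81 and 8.24 in pNSC_L and 10.27 and 10.12 in pNSC_LF, a rise of 1.67 ± 0.29 (adjusted p = 0.021). Grb10, an imprinted inhibitor of growth factor receptors, rose by 0.82 ± 0.15 (adjusted p = 0.024). Both were lost without pNSC_LF replicate 1 (adjusted p = 0.18 and 0.16) and replicate 2 (0.12 and 0.19), Plagl1 also without pNSC_L replicate 2 (0.060) and Grb10 without pNSC_L replicate 1 (0.067).

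A different imprinted region, between Dlk1 and Dio3 on chromosome 12, was lower in pNSC_LF over most of its length. It was picked after its values were seen, because 3 neighbouring genes there fell. The copy inherited from the mother expresses its long noncoding RNAs Meg3 and Rian and a large cluster of miRNAs, small RNAs that repress messenger RNAs through a seed of bases 2 to 8. Of 48 measured genes of the interval 6 fell and none rose, against 0.677% and 1.10% of all genes. The difference was negative at 44, as it was at 9434 of all 19938 genes. At 31 the pNSC_LF mean lay below each pNSC_L array, as it did at 5243 of all 19938 genes. The median was -0.37, or -0.31 against pNSC_L replicate 1 and -0.45 against replicate 2. Of the 40 miRNA genes among them 5 fell (median -0.37), against 2 of the 257 other miRNA genes measured (Mir202 and Mir98; median -0.03).

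The mature sequences of the 5 miRNA genes that fell are shown to name their seeds, in capitals; they are from RefSeq, on the plus strand of chromosome 12. The array has 1 value per miRNA gene, so its arms (5p and 3p), and a mature miRNA and its precursor, cannot be told apart.
miR-379-5p: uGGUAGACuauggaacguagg
miR-379-3p: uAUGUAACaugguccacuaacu
miR-411-5p: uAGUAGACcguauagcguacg
miR-411-3p: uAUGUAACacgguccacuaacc
miR-329-5p: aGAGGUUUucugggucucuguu
miR-329-3p: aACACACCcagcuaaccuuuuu
miR-679-5p: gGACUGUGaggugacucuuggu
miR-679-3p: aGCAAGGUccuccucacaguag
miR-543-5p: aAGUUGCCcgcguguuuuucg
miR-543-3p: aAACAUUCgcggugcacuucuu
The 3p arms of miR-379 and miR-411 share the seed AUGUAAC, and the other 8 seeds each occur in 1 of these mature forms.

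Mir379 read 5.81 and 6.38 in pNSC_L and 4.83 and 5.07 in pNSC_LF, and fell by 1.14 ± 0.17 (adjusted p = 0.012). Its neighbour Mir411 read 6.82 and 7.28 and then 5.87 and 5.89, and fell by 1.17 ± 0.18 (adjusted p = 0.012). Both genes' secondary-pass arrays lay below the lower quartile of probe sets, as did those of Mir543, and AF357341 was near it or below, so these sizes are uncertain. Mir329 was brighter, at 8.79 and 8.72 and then 7.86 and 7.94, and fell by 0.85 ± 0.11 (adjusted p = 0.0061). Mir543 and Mir679 fell by 1.24 ± 0.21 and 0.62 ± 0.12 (adjusted p = 0.020 and 0.031), and AF357341, the small RNA gene next to Mir379, by 0.62 ± 0.12 (adjusted p = 0.029). None of the 6 held: without pNSC_LF replicate 1 their adjusted p ran from 0.10 for Mir329 to 0.19 for Mir543, and without pNSC_LF replicate 2 from 0.056 for Mir329 to 0.27 for Mir679.

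The long RNAs of the interval did not pass the test. Meg3 read 12.21 and 12.26 in pNSC_L and 11.96 and 11.93 in pNSC_LF, a difference of -0.29 ± 0.10 (adjusted p = 0.22). Rian read 10.63 and 10.56 and then 9.88 and 9.92, a difference of -0.69 ± 0.18 (adjusted p = 0.087). The genes at the ends, Dlk1 and Dio3, which the other parental copy expresses, differed by 0.22 and 0.17. Both secondary-pass values of Meg3 and Rian still stood above their ESC means of 11.02 and 9.07. The called genes of the interval differed in this. Mir679, Mir543 and AF357341 stood above both ESC arrays in pNSC_LF, and Mir411 and Mir329 lay between them. Mir379, at 4.83 and 5.07, lay below both, at 5.505 and 5.473.

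**Figure D4:**
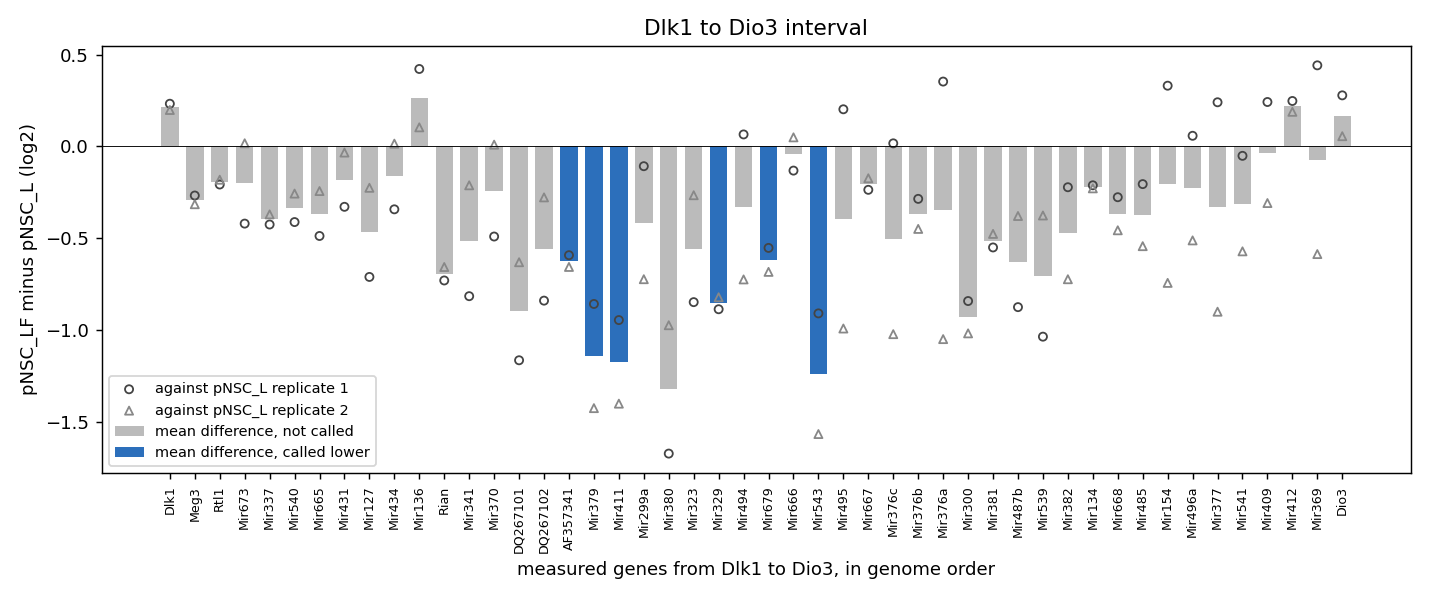
Difference between pNSC_LF and pNSC_L (log2, vertical) of 48 measured genes from Dlk1 to Dio3 in genome order (horizontal, evenly spaced); bars are mean differences, blue where the gene fell, and open circles and triangles the difference from pNSC_L replicate 1 and 2. Bars point down at 44 genes, and the 6 blue ones lie between AF357341 and Mir543.

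The called genes were then placed among the other cultures. Both pNSC_LF arrays stood above all other 8 arrays at 99 of the 220 rising genes (45.0%), as at Dmgdh, Bhmt2 and Tfap2a, and both pNSC_L arrays stood below all other 8 at 56 (25.5%). Both pNSC_L arrays stood above all other 8 at 74 of the 135 falling genes (54.8%), as at Mmp3 and Fgf10, and both pNSC_LF arrays below all other 8 at 24 (17.8%). The order of the 2 passes at these genes was fixed by their choice, so these shares are descriptions with no reference among all genes. In the comparison of pNSC_LF with ESC, 156 of the 220 rising genes were higher in pNSC_LF, 53 were not called and 11 were lower. Of the 135 falling genes 76 were not called against ESC, 46 were lower in pNSC_LF and 13 higher. Over all genes 7.85% were higher and 7.41% lower. These are no reference for the counts, because the pNSC_LF arrays of that comparison also served to choose the genes. Lefty2, for example, stood 1.89 above ESC in pNSC_L and 0.35 above it in pNSC_LF, and Timp2 1.21 and 0.04.

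The comparison of dNSC with ESC shares no array with the one between the passes. Of the 220 rising genes 99 were also higher in dNSC than ESC (45.0%; 20.7% of all genes) and 66 were lower (19.9% of all genes). Of the 135 falling genes 55 were also lower (40.7%) and 40 higher (29.6%). Shares in the same and in the opposite direction thus both exceeded those of all genes. Over both, 43.4% of the 355 moved the same way in both comparisons. Ptprz1 was 3.17 higher in dNSC than ESC, Plagl1 3.64, Jun 2.69 and Id3 1.79, and Car4, a membrane carbonic anhydrase that rose by 1.21 ± 0.14 between the passes and held, was 4.88 higher. Nqo1 went the other way, with a dNSC minus ESC difference of -2.07, while Dmgdh and Bhmt2 differed by 0.09 and -0.07. Bgn and Dcn, which fell between the passes, were 2.94 and 3.27 higher in dNSC than ESC.

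**Figure D5:**
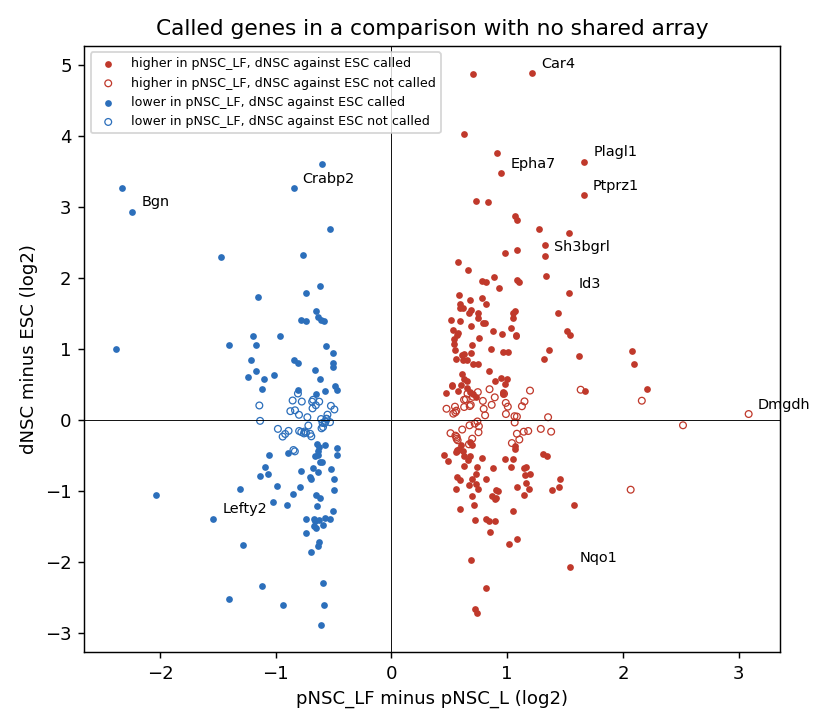
Difference between the passes (log2, horizontal) against the difference between dNSC and ESC (log2, vertical) for the 355 called genes; filled points were also called between dNSC and ESC. Of the rising genes (red) 99 are filled above 0 and 66 below it, and Dmgdh lies near 0 on the vertical axis.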

How the data were processed

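Trizol-extracted RNA of 10 mouse cell cultures was hybridised to Affymetrix whole-transcript arrays, as the labels' protocols state. In the deposited table each probe set has 1 value per array, taken as log2 intensity, made by the authors with RMA and Partek per the submitters' processing notes, which give no versions. RMA gives log2 values, normalises between arrays and compresses differences of dim probe sets; the log base is not stated in the file and was inferred from this and from the range of values, and every fold rests on it. The genome build and scan batches are not given in the sources used here. The authors' log2 values were used unchanged, and array medians lay between 7.66 and 7.76.

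Of 35556 probe sets 21789 had 1 gene symbol in the platform's annotation, 1621 had several and 12146 had none here; of the first, 21698 matched the RefSeq gene table. Where a gene had several probe sets (999 genes), that of highest mean stood for it, which gave 19938 genes. In R 4.3.3, limma 3.58.1 fitted 1 mean per group to all 10 arrays (residual degrees of freedom 5, prior 4.9, median SE 0.13), with Benjamini-Hochberg adjustment over all genes. The fit was tested on simulated data, drawn with the same spread in every group. The wider spread of the pNSC_L replicates was therefore not tried there. The members and the 43 gene lists (877 entries, 823 measured) were chosen with earlier results of these data known, so lists are described by counts and medians without a test. Over the 757 different list genes 33 rose (4.36%) and 16 fell (2.11%), against 1.10% and 0.677% of all genes. Because the lists were chosen with results known, this excess is no result about them.

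Genes were named by a rule: the 15 largest rises and 15 largest falls among calls with separated arrays, a higher group mean no lower than the median gene (8.10) and no predicted symbol; up to 3 rising and 3 falling members of each list, or the largest difference where none was called; landmark genes of pluripotency, neural cells, FGF and Lif; and the 10 genes that differed most between the pNSC_L arrays. Other names were chosen after their values were seen: further list members, runs of neighbouring called genes, motif matches, the Dlk1 to Dio3 interval and examples of the dNSC comparison. Sequences are from RefSeq tables of GRCm38.p6. Alternatives were 3 scalings, removal of dim genes, trended, robust and unmoderated variances, array weights, the 4 arrays alone, a replicate block, averaged probe sets and leaving out each array. Tables and plots were made in Python 3.11.15 (pandas 2.3.3, matplotlib 3.10.9).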

Additional observations from a re-analysis of the deposited data

How the results depend on the processing

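The number of called genes, 355, was 208 with array weights, 99 with only the 4 arrays, 89 with an unmoderated test, and between 48 and 826 when 1 array was left out (without pNSC_LF replicate 1 and pNSC_L replicate 2). The other settings gave 340 to 450 calls. The 100 calls of at least 2-fold became 58 with the dimmer 50% of genes left out, 26 with an unmoderated test, and 39 to 186 without 1 array. The share of called genes that moved the same way between dNSC and ESC, 43.4%, was 50.1% with the dimmer 50% left out and 36.2% to 41.8% without 1 array of dNSC or ESC. Of 62 named genes that were called, 21 kept their call without each array in turn; 46 lost it with an unmoderated test, 30 with only the 4 arrays, 10 with array weights, and 0 with quantile normalization, a trended or a robust prior. The arrays of the 62 called genes did not overlap between the passes, so leaving out 1 array could not turn their sign. Named genes that were not called could change sign: both pNSC_LF arrays of Fos lay below pNSC_L replicate 1 and above replicate 2. Deviations of same-numbered arrays correlated at 0.258 between pNSC_L and pNSC_LF, at 0.138 to 0.375 among these 2 groups, ESC and CNS_NSC, and at -0.107 to 0.094 with dNSC. No label says that a number marks a shared batch, and with dNSC included the pairing rule was not met, so the numbers were not used; a shared effect of the number in the other 4 groups was not tested further. A replicate block gave 407 calls, 344 of them shared, and ended that of Rnf43. The cause of these changes was not tested. Probe sets below the lower quartile (6.39 to 6.49) have uncertain sizes.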

Other observations

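Called genes also stood side by side elsewhere, in runs picked after the values were seen. On chromosome 12 Lrr1 rose by 1.31 ± 0.11 and its neighbour Mgat2, an enzyme of glycan branching, by 1.01 ± 0.17 (limma adjusted p = 0.00068 and 0.017); Lrr1 held, and Mgat2 was lost without pNSC_LF replicate 1, 2 or pNSC_L replicate 1 (adjusted p = 0.13, 0.14 and 0.061). On chromosome 4 Slc30a2, a zinc transporter, went from 9.85 and 9.80 in pNSC_L to 11.09 and 10.88 in pNSC_LF, a rise of 1.16 ± 0.12 that held, and Extl1, of heparan sulphate synthesis, rose by 0.61 ± 0.10 (adjusted p = 0.017; 0.19 without pNSC_LF replicate 1 and 0.12 without replicate 2). On chromosome 1 Nabp1 and Stat4 fell by 0.60 ± 0.10 and 0.94 ± 0.18 (adjusted p = 0.022 and 0.029), and both were lost without pNSC_LF replicate 1 (0.18 and 0.28) or 2 (0.18 and 0.12), Nabp1 also without pNSC_L replicate 1 (0.057) and Stat4 without pNSC_L replicate 2 (0.058).

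With 1.78% of all genes called, a list of this size need hold no call, and these held none: glycolysis and hypoxia (24 genes, median -0.03), cholesterol synthesis (19, -0.14), S phase and replication (25, -0.14), G2 and mitosis (21, -0.11), G1 cyclins and CDK inhibitors (20, -0.02), Notch (19, -0.08), Hedgehog (12, -0.04) and DNA methylation and Tet (15, -0.03). Single rises in other groups were Perp, a p53 target of cell adhesion (1.20 ± 0.18, adjusted p = 0.012), Hspb8, a small heat shock protein (1.09 ± 0.21, adjusted p = 0.035), Taf7l, a germline transcription factor subunit (0.88 ± 0.13, adjusted p = 0.011), and B2m, the light chain of MHC class I (0.79 ± 0.15, adjusted p = 0.032). Without pNSC_LF replicate 1 these had adjusted p = 0.14, 0.24, 0.12 and 0.24, and without replicate 2 all but Perp were lost too (0.20, 0.10 and 0.20), as was B2m without pNSC_L replicate 1 (0.053).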
